A study of Ovis aries with 8 samples.

Results

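A set of 6 sheep genes had more transcript in both libraries from muscle satellite cells given a miR-127 mimic than in both libraries given a control mimic, and their levels are described here in all 4 treatment groups. They are ENSOARG00000020058, ENSOARG00000007234, ENSOARG00000002590, ENSOARG00000013245, ENSOARG00000015262 and ENSOARG00000003244, which are 6 of the 20921 Ensembl sheep gene IDs in the count table and 6 of the 16353 with enough counts to test. The deposited table gives IDs without symbols, and the RefSeq sheep gene table used for names matched 0 of the IDs. No name, position, sequence or function is therefore given for any of the 6.

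Primary satellite cells of SuffolkxTexel sheep took up the oligonucleotides by lipid transfection when 60% confluent, and RNA was taken on day 4. There were 4 groups of 2 libraries: a control mimic, the miR-127 mimic at 100 nM, a control antagomiR, and antagomiR-22-3p at 500 nM. The sources used here do not give the sequences or doses of both controls, nor whether the mimic was of the 3p or 5p arm. The titles number the 2 libraries of each group experiment 1 and experiment 2, called replicates 1 and 2 here. They do not say whether the experiments used separate animals or cell preparations, so the p-values cover only the spread between these experiments. In RNA from whole cultures, a change in the mix of cells and a change in transcript per cell cannot be told apart. The identity of the cells could not be checked against marker genes, since no ID could be paired with a symbol.

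Satellite cells are the stem cells of skeletal muscle, and they divide and fuse into fibres when muscle grows or is repaired. A microRNA is a short RNA that guides a silencing complex to matching sites in messenger RNAs, mostly in their 3′ untranslated regions, and so lowers their level or translation. Cells are given a duplex RNA, the mimic, to raise the activity of a microRNA, or an antisense oligonucleotide, the antagomiR, to block it. Direct targets of a mimic are expected to be lower after it. The 6 genes described here were chosen for being higher, and whether any of them is a target was not tested. The gene of miR-127 lies in the imprinted DLK1-DIO3 region, the region affected by the callipyge mutation that enlarges sheep muscle, and is read from the strand opposite RTL1.

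Library totals ran from 26637300 to 35843926 counts. Levels are in CPM, read counts relative to a common library size, with each library scaled by a TMM factor (0.915 to 1.11). CPM is not corrected for gene length, so levels are compared between libraries for 1 gene and not between genes. The 2 libraries of the miR-127 mimic group were the least alike of any group, with r = 0.972 across genes against 0.979 in each of the other 3 groups.

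The miR-127 mimic libraries stood above all 6 other libraries for each of the 6 genes. They did so for 7.36% of all genes tested. The share was 42.1% of the other genes without overlap with the control mimic and with at least the lowest member's fold change. The members were chosen by the comparison with the control mimic, so what follows on that comparison is a description with no test. In the order that edgeR's fit gives to the genes higher in both miR-127 mimic libraries, the 6 hold places 1 to 6 of 2981 genes without overlap (18.2% of the genes tested). By the size of the change alone they lie lower, at places 83 to 365. The first gene beyond them, at place 7, averaged 271 CPM with the miR-127 mimic against 118 CPM with its control, a log2 fold change of 1.20. That is more than the log2 fold change of 0.79 of the member at place 3, and less than the 1.32 of the member at place 6. Of all 16353 genes, 0 were called at an adjusted p of 0.05 in this comparison (0%, edgeR's quasi-likelihood test), 1143 had an unadjusted p under 0.05 (6.99%), and DESeq2 called 43.

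ENSOARG00000020058 held place 1. Its level was 2912 and 2153 CPM in miR-127 mimic replicates 1 and 2, against 1453 and 1268 CPM in the control mimic replicates. The control antagomiR replicates held 1285 and 1303 CPM, and the replicates given antagomiR-22-3p held 1194 and 1319 CPM. The miR-127 mimic libraries thus stood alone, while the other 6 libraries lay within 1.22-fold of each other. The mean was 2532 ± 536 CPM after the miR-127 mimic and 1360 ± 131 CPM after the control mimic (SD, n = 2), a fitted log2 fold change of 0.90. The order of the other group means (control mimic, control antagomiR, antagomiR-22-3p) spans 1257 to 1360 CPM, and the libraries of neighbouring groups in that order overlap.

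ENSOARG00000007234 was at 35.6 and 49.7 CPM in the miR-127 mimic replicates and at 23.6 and 22.04 CPM in the control mimic replicates. The control antagomiR libraries were at 23.1 and 24.7 CPM, and the antagomiR-22-3p libraries at 27.0 and 29.0 CPM. It is the only member whose second miR-127 mimic replicate was clearly the higher one (1.39-fold above the first). Its mean was 42.6 ± 9.93 CPM against 22.8 ± 1.11 CPM in the control mimic (SD, n = 2), a log2 fold change of 0.90. The lower miR-127 mimic library was 1.23 times the highest of the other 6, an antagomiR-22-3p library, which is the narrowest margin among the members. Among the other groups antagomiR-22-3p came next, without overlap, and the control antagomiR and the control mimic overlapped.

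ENSOARG00000002590 was at 520 and 398 CPM in the miR-127 mimic replicates and at 273 and 259 CPM in the control mimic replicates. The antagomiR-type libraries were lower, with 166 and 200 CPM for the control antagomiR and 181 and 213 CPM for antagomiR-22-3p. This gene therefore had 3 levels: the 4 antagomiR-type libraries, then the control mimic, then the miR-127 mimic. Its mean was 459 ± 86.4 CPM against 266 ± 10.1 CPM in the control mimic (SD, n = 2), a log2 fold change of 0.79. That was the smallest of the 6 against the control mimic, while the log2 fold change against the control antagomiR (183 ± 23.8 CPM) was 1.33.

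ENSOARG00000013245 had the fewest counts, 198 and 158 in the miR-127 mimic replicates and 38 and 60 in the control mimic replicates. These are 6.12 and 6.17 CPM against 1.43 and 1.85 CPM. Its level was 2.37 and 1.54 CPM with the control antagomiR, and 2.58 and 2.23 CPM with antagomiR-22-3p. The miR-127 mimic replicates were closer to each other than for any other member, and the log2 fold change, 1.90, was the largest of the 6. The mean was 6.15 ± 0.0395 CPM against 1.64 ± 0.294 CPM (SD, n = 2). In the control antagomiR, antagomiR-22-3p and control mimic groups the SD was 30%, 10.3% and 18% of the mean. The close pair after the miR-127 mimic therefore does not show that this gene varies little. The 6 other libraries spanned 1.80-fold, and their groups overlapped except that both antagomiR-22-3p libraries lay above both control mimic libraries.

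ENSOARG00000015262 was at 750 and 495 CPM in the miR-127 mimic replicates and at 297 and 272 CPM in the control mimic replicates. With the control antagomiR it was at 193 and 270 CPM, and with antagomiR-22-3p at 156 and 214 CPM. Its mean was 623 ± 180 CPM against 284 ± 17.4 CPM in the control mimic (SD, n = 2), a log2 fold change of 1.13. The lower miR-127 mimic library was 1.67 times the highest other library. The control mimic came next, just above the control antagomiR (272 against 270.2 CPM between the nearest libraries), and the control antagomiR overlapped with antagomiR-22-3p.

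ENSOARG00000003244 was at 50.4 and 32.9 CPM in the miR-127 mimic replicates and at 20.5 and 13.0 CPM in the control mimic replicates. With the control antagomiR it was at 15.1 and 20.2 CPM, and with antagomiR-22-3p at 15.4 and 18.3 CPM. The 3 groups not given the miR-127 mimic had almost equal means, from 16.7 to 17.6 CPM, and overlapped. Its mean after the miR-127 mimic was 41.6 ± 12.4 CPM, against 16.7 ± 5.30 CPM in the control mimic (SD, n = 2), a log2 fold change of 1.32.

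**Figure D1:**
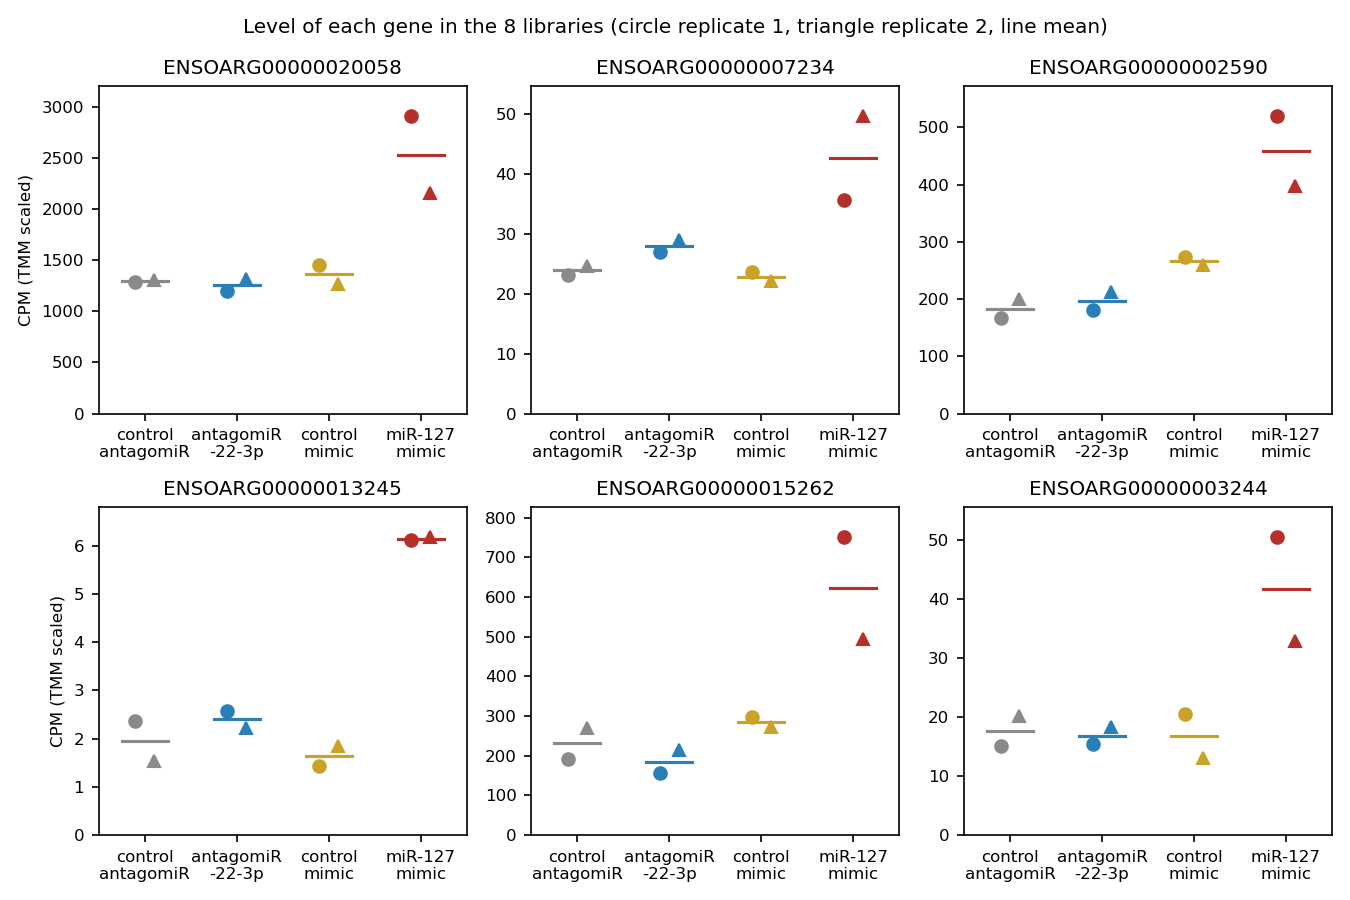
Level of each gene in CPM (vertical axes, each starting at 0) in the 8 libraries, by group; circles are replicate 1, triangles replicate 2 and lines the mean of the 2. In every panel both miR-127 mimic libraries lie above the other 6, by 1.23-fold (ENSOARG00000007234) to 2.37-fold (ENSOARG00000013245) between the nearest libraries. Of all genes tested, 7.36% had both miR-127 mimic libraries above the other 6.

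The 4 antagomiR-type libraries took no part in the rule, although the fit that orders the genes draws on the spread within all 4 groups. For all 6 members both miR-127 mimic libraries also lay above these 4. Over all genes tested, 7.36% had both miR-127 mimic libraries above all 6 others. Among the 359 other genes that had no overlap with the control mimic and at least the lowest member's fold change, the share was 42.1%. The 6 of 6 among the members thus stands beside 42.1% for genes matched on a minimum change, and not on spread or level. The order of the fit favours genes of small spread, and so a clear separation, which means these shares are not like for like. No test was made because the miR-127 mimic libraries are the ones that chose the members. The margins remained without TMM scaling, where the lower miR-127 mimic library was 1.20 to 2.10 times the highest other library.

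Against the control antagomiR, the fitted log2 fold changes of the miR-127 mimic were 0.97 for ENSOARG00000020058, 0.83 for ENSOARG00000007234 and 1.65 for ENSOARG00000013245. They were 1.43 for ENSOARG00000015262 and 1.24 for ENSOARG00000003244. With library totals in place of TMM, which moved the median of all genes from -0.017 to -0.20, the 6 values ran from 0.65 to 1.46. All 6 were without overlap and higher, where 24.9% of all genes tested were. This comparison shares the miR-127 mimic libraries with the one that chose the members, so it is no independent support.

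The levels in the antagomiR-type libraries took no part in choosing the members, so their difference after the other treatment was tested. The spread within these libraries did enter the order of the fit, which favours genes of small spread, so the SE and p of this test rest on a spread that was in part selected. AntagomiR-22-3p left no member called: 0 of 6 differed from the control antagomiR. The same test called 0 of all 16353 genes (0%, quasi-likelihood F test of edgeR with Benjamini-Hochberg adjustment). At an unadjusted p under 0.05 there were 824 genes (5.04%). DESeq2 called 66 genes, none of them a member, but gave no adjusted p to 15535 of the 16353 genes. ENSOARG00000007234, ENSOARG00000013245 and ENSOARG00000003244 were among those 15535, so DESeq2 could not have called these 3 members. Of the members, 3 had a positive and 3 a negative log2 fold change, with a median of 0.03, where all genes tested had a median of 0.0019. Only ENSOARG00000007234 had no overlap between the groups, with both antagomiR-22-3p libraries higher, as 18.4% of all genes did. Its level was 28.0 ± 1.43 CPM after antagomiR-22-3p and 23.9 ± 1.11 CPM in the control (SD, n = 2). Its log2 fold change was 0.23 with an SE of 0.15, and edgeR gave an adjusted p of 0.98.

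The intervals show how large a response these libraries leave possible. For ENSOARG00000020058 the 95% interval of the fold was 0.781 to 1.21, and for ENSOARG00000002590 it was 0.869 to 1.33. It ran from 0.926 to 1.48 for ENSOARG00000007234. These 3 intervals, and those of ENSOARG00000015262 (0.575 to 1.11) and ENSOARG00000003244 (0.647 to 1.41), do not reach the fold that each gene had after the miR-127 mimic, which was 1.73 to 2.50, a size that the choice of members favours. The difference between the 2 responses was not tested for that reason. ENSOARG00000013245, with 46 to 92 counts in these 4 libraries, had the widest interval, 0.719 to 2.09, against 3.73-fold after the mimic. The adjusted p of the 6 genes ran from 0.98 to 1.0 by edgeR. For the same reason as the SE, these intervals may be too narrow.

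**Figure D2:**
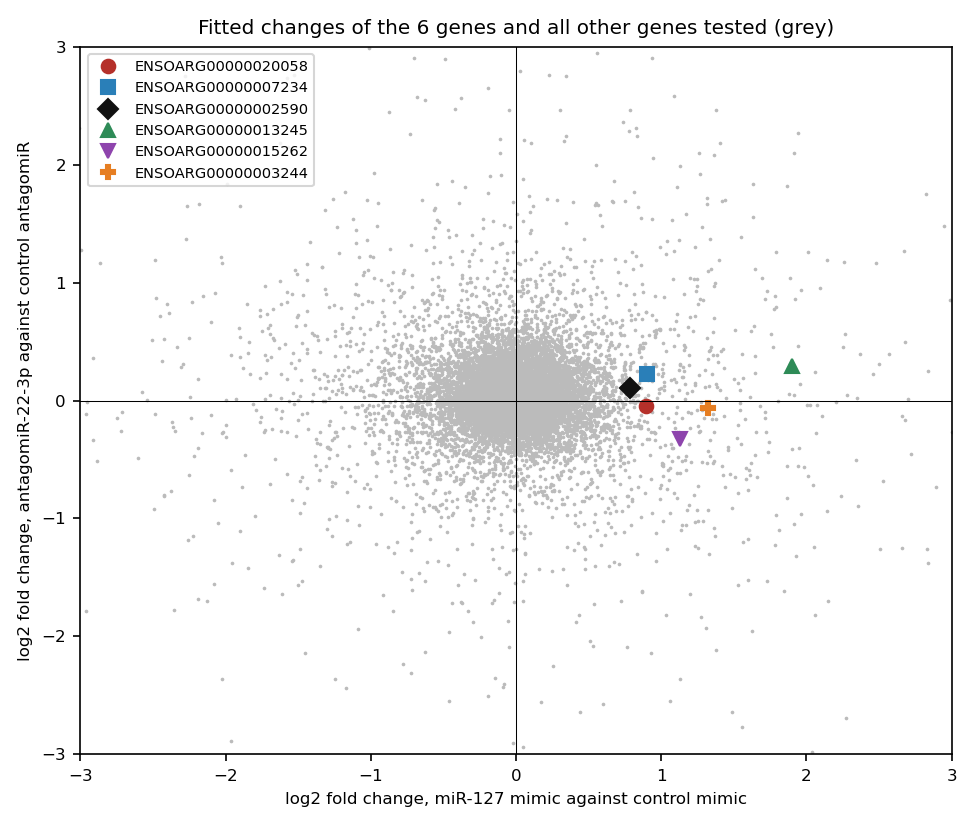
Fitted log2 fold change after the miR-127 mimic (horizontal axis) and after antagomiR-22-3p (vertical axis), each against its own control; grey points are the other genes tested, and 151 genes lie beyond 3 on an axis and are not drawn. The 6 genes lie between 0.79 and 1.90 on the horizontal axis, which chose them, and between -0.32 and 0.29 on the vertical axis.

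The 2 control groups gave the members' level under either control oligonucleotide. The control mimic libraries had a part in the choice of members, so these values are not tested either. For ENSOARG00000002590 the control mimic was higher than the control antagomiR without overlap (log2 fold change 0.54), and for ENSOARG00000015262 it was higher by 0.30, also without overlap. The other 4 overlapped between the controls, with log2 fold changes of 0.07 for ENSOARG00000020058, -0.07 for ENSOARG00000007234, -0.25 for ENSOARG00000013245 and -0.08 for ENSOARG00000003244. Hence 2 of 6 members were higher in the control mimic without overlap, where 26.2% of all genes were. Without TMM scaling ENSOARG00000015262 overlapped, at 258 CPM in the lower control mimic library and 282 CPM in the higher control antagomiR library, which leaves ENSOARG00000002590. The log2 fold change of ENSOARG00000015262 was 0.14 with library totals and 0.08 without control antagomiR replicate 1. With library totals in place of TMM the value for ENSOARG00000020058 was -0.09, of the opposite sign; that scaling moved the median of all genes from -0.0091 to -0.17. Leaving out 1 control library also changed signs: ENSOARG00000020058 was at -0.03 without control mimic replicate 1, and ENSOARG00000013245 at 0.10 without control antagomiR replicate 1. ENSOARG00000003244 ran from -0.44 to 0.21, and was positive without replicate 2 of either control. The direction between the controls is therefore not settled for these 3 genes. The type of control, its dose and any handling that went with it cannot be told apart, as each arm held 1 type.

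**Figure D3:**
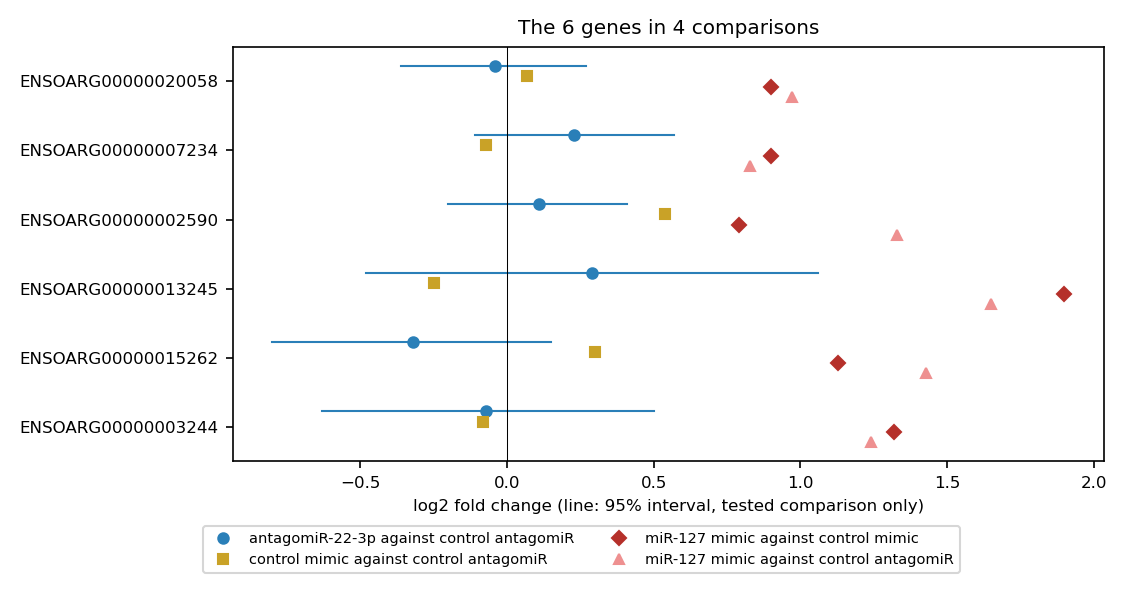
Fitted log2 fold change of the 6 genes in 4 comparisons (horizontal axis); the blue lines are 95% intervals, drawn only for the comparison that could be tested. The intervals for antagomiR-22-3p all include 0, and the values for the control mimic against the control antagomiR run from -0.25 to 0.54.

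The members differed in how far the 2 miR-127 mimic libraries lay apart. Replicate 1 was the higher for 4 of 6: 1.35-fold for ENSOARG00000020058, 1.31-fold for ENSOARG00000002590, 1.52-fold for ENSOARG00000015262 and 1.53-fold for ENSOARG00000003244. Over all genes tested, 48.4% were higher in replicate 1. The SD was 18.8% to 29.8% of the mean for 5 members and 0.644% for ENSOARG00000013245. The same 4 genes were also higher in replicate 1 of the control mimic, and higher in replicate 2 of both antagomiR-type groups. That combination of directions, picked out after the values were seen, held for 8.16% of all genes tested; the titles give all 4 groups the same experiment numbers, and do not say what libraries of 1 number share.

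Leaving out 1 library at a time moved the size of each change. The direction could hardly turn, since the members were chosen with both miR-127 mimic libraries above both control mimic libraries. Without miR-127 mimic replicate 1 the log2 fold change against the control mimic was 0.66 for ENSOARG00000020058, 0.58 for ENSOARG00000002590, 0.80 for ENSOARG00000015262 and 0.98 for ENSOARG00000003244. Those are the lowest values of these 4 genes. ENSOARG00000007234 went the other way, with 0.64 without replicate 2 and 1.12 without replicate 1. ENSOARG00000013245 stayed between 1.73 and 2.10, and both of those values came from leaving out a control mimic library.

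**Figure D4:**
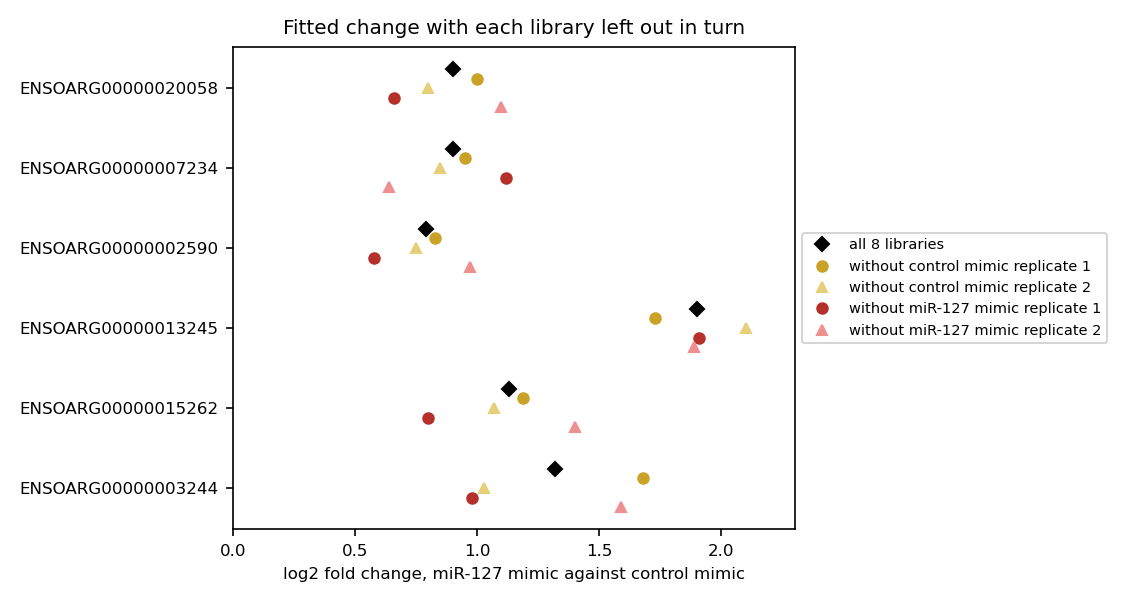
Fitted log2 fold change of the miR-127 mimic against the control mimic (horizontal axis) with all 8 libraries (black diamonds) and with each of the 4 libraries compared left out in turn. All values lie above 0, which the choice of members all but required. They run from 0.58 for ENSOARG00000002590 without miR-127 mimic replicate 1 to 2.10 for ENSOARG00000013245 without control mimic replicate 2.

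The counts of the members bear on their precision. No other gene had counts within 2% of those of a member in every library, so none was a near-identical copy in the counts. A gene that shares only part of a member's reads would not be found this way. All 8 counts of ENSOARG00000013245 were even, and 7 of 8 of ENSOARG00000020058. In the whole table, odd numbers made up 11.9% to 15.6% of counts between 1 and 100 and 29.5% to 32.6% of counts between 101 and 1000, depending on the library. ENSOARG00000007234 and ENSOARG00000002590 each had 2 even counts of 8, ENSOARG00000015262 had 3 and ENSOARG00000003244 had 5. No share was taken for counts above 1000, where every count of ENSOARG00000020058, ENSOARG00000002590 and ENSOARG00000015262 lies. The number of independent fragments behind a count is not known.

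The genes most like the members were sought over the 8 libraries. The measure was Pearson's r between a gene's log2 CPM and the mean standardised profile of the 6, among 12792 other genes with a mean of at least 2 log2 CPM. ENSOARG00000016607 came first (r = 0.970), with 639 ± 140 CPM after the miR-127 mimic and 389 ± 20.4 CPM after its control (SD, n = 2). Its level was 360 ± 26.4 CPM after antagomiR-22-3p and 359 ± 36.3 CPM after that control, and it also held place 9 in the order of the fit. ENSOARG00000017926 came next (r = 0.969), with 38.0 ± 4.84 CPM after the miR-127 mimic and 26.4 ± 1.97 CPM after its control. Its means in the antagomiR-type groups were 26.1 ± 0.625 CPM when treated and 26.5 ± 2.57 CPM in the control. Among the members, r with their own mean ran from 0.857 for ENSOARG00000007234 to 0.983 for ENSOARG00000020058. Each member is part of that mean, yet other genes reached at least the same r. There were 182 such genes for ENSOARG00000007234, 92 for ENSOARG00000013245, and from 0 to 20 for the remaining members. The 8 points share the 2 miR-127 mimic libraries, which lie apart from the rest by the choice of members, so r mostly reflects those 2.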

How the data were processed

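Per the labels' protocols, poly(A) RNA was sequenced on an Illumina NovaSeq. The authors deposited raw read counts per gene, 1 column per library. The submitters' processing notes list edgeR 3.34.1, featureCounts 2.0.2, Subread, RSEM 1.3.3, Trim Galore 0.6.5 and FastQC 0.11.8 without saying what each was used for. The sources used here give no genome build, annotation, strand setting or treatment of read pairs. Both miR-127 mimic samples carry 1 description, and the experiment number in each title assigned their columns.

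Analysis of the counts used edgeR 4.0.16 under R 4.3.3. The default expression filter (minimum count 10, minimum total 15) left 16353 genes, all 6 members among them. One quasi-likelihood model with a mean per group was fitted to all 8 libraries with TMM factors (4 residual and 6.29 prior degrees of freedom), and p-values were adjusted by Benjamini-Hochberg over all genes tested; calls were made at 0.05. Tests were 2-sided. An exact permutation test of 2 libraries against 2 cannot go below 0.333. The SE is the log2 fold change over the square root of F, and the 95% interval uses the t distribution of the fit. Log2 CPM used a prior count of 2. The members, the rule for the most similar genes (the 2 with the highest r) and the lists were chosen with earlier results of these data known. A list of cell type markers was not run for want of symbols.

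On simulated libraries of 16169 genes for the antagomiR-22-3p comparison, the test recovered 28.4% of genes changed 1.5-fold. It recovered 65.2% of those changed 2-fold and 87.9% of those changed 4-fold, and called 5 unchanged genes. The planted changes ease the Benjamini-Hochberg cut, so these shares may be too high for the real libraries. Alternatives were RLE factors, library totals, no filter, a stricter filter (1 CPM in 4 libraries), only the 4 libraries compared, a block for the replicate number, DESeq2 1.42.0, and leaving out each library.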

Additional observations from a re-analysis of the deposited data

How the results depend on the processing

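No member was called against the control antagomiR under any setting. In that comparison, leaving out 1 library changed the sign of 3 members: ENSOARG00000002590 (range -0.01 to 0.24, negative without control antagomiR replicate 1 or with the second antagomiR-22-3p library left out), ENSOARG00000003244 (-0.25 to 0.16, positive without control antagomiR replicate 2 and, at 0.06, without antagomiR-22-3p replicate 1) and ENSOARG00000020058 (-0.11 to 0.03, positive without antagomiR-22-3p replicate 1). The cause was not tested. Over all genes, that comparison called 1 gene with library totals, 1 with no expression filter, 1 with only the 4 libraries compared, 66 with DESeq2 (which left 15535 genes without an adjusted p, 3 members among them) and 0 to 2 without 1 library. The miR-127 mimic comparison called 17 genes with library totals, 6 with no expression filter, 1 with only the 4 libraries compared, 43 with DESeq2, and 0 to 61 without 1 library, the 61 without miR-127 mimic replicate 2. A fit without 1 library leaves a group of 1, assumed to vary like the others.

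Same-numbered libraries deviated together weakly (r = 0.17 across genes for the antagomiR-type groups and 0.04 for the mimic-type). The titles give every group an experiment 1 and an experiment 2, without saying whether same-numbered libraries share a day, batch or animal, and the fit of the report has no pairing. With the replicate number as a block, 0 genes were called for antagomiR-22-3p and 2 for the miR-127 mimic, and no member's value moved by more than the spread between replicates.

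The members' log2 fold changes against the control mimic kept their sign under all 11 settings, which their choice by this comparison made all but certain. Their places in the order of the fit, recomputed after the data were seen, did not hold as firmly: 6 were among the first 6 with RLE factors, 5 with library totals, 5 with DESeq2, 2 with only the 4 libraries compared, and 1 to 3 without 1 library. All 6 were among the first 100 in each of these settings.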
